A study of Rattus norvegicus with 12 samples.

Results

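A set of 8 genes that are widely read as markers of liver fibrosis was followed through 12 rat liver libraries. They are the collagen genes Col1a1 (ENSRNOG00000003897), Col1a2 (ENSRNOG00000011292) and Col3a1 (ENSRNOG00000003357), the matrix glycoprotein genes Fn1 (ENSRNOG00000014288) and Sparc (ENSRNOG00000012840), the intermediate filament gene Vim (ENSRNOG00000018087), the cytokine gene Tgfb1 (ENSRNOG00000020652) and the protease inhibitor gene Timp1 (ENSRNOG00000010208). The genes were chosen by name and taken from the table by their Ensembl rat gene IDs, and 8 of 8 were among its 34194 IDs. The study asked whether green tea protects the rat liver against N-nitrosodiethylamine (NDEA), a carcinogen that the liver activates to a DNA-alkylating agent.

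At the start the animals were 48 male Wistar rats of 140 to 160 g, with 12 in each of 4 groups. The livers were taken after 20 weeks. Control rats received saline by intraperitoneal injection and drank water. NDEA rats received 25 mg/kg NDEA by the same route and drank water, and injections were given 2 times a week from week 2 to week 9 in every group. NDEA+FYT rats received the same NDEA and an infusion of the common green tea Fuyun6 for 20 weeks, and NDEA+CFT-1 rats received the same NDEA and an infusion of the tea variety CFT-1, which holds much epigallocatechin-3-gallate, over the same 20 weeks. No group received tea without NDEA, and the labels do not say whether the pieces of liver held tumor nodules. Livers of 3 rats per group were sequenced, so n = 3 libraries in each group. The lesion counts of the paper covered fewer rats in the NDEA and NDEA+FYT groups than in the other groups.

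In a fibrotic liver, stellate cells that store vitamin A in the healthy organ turn into myofibroblasts and lay down fibrillar collagen, above all types I and III. TGF-β1 is the best known signal for that switch, and TIMP-1 slows the removal of the scar by inhibiting matrix metalloproteinases. Fibronectin and SPARC take part in assembling the collagen matrix, and vimentin is the intermediate filament of mesenchymal cells. In the liver, fibronectin is also a major secretory product of hepatocytes and circulates in plasma. All values below are from whole liver, in which fewer cells of a type and less RNA per cell cannot be told apart. The livers were not checked against cell type markers, because no table used here pairs the other IDs with gene symbols.

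NDEA replicate 1 stood apart in the deposited values. Of the 11854 genes that averaged 1 FPKM or more (fragments per kilobase of transcript, normalised to library depth), 49.4% peaked in NDEA replicate 1. This share was 20.0% after median-of-ratios scaling, which divides each library by the median ratio of its genes to their geometric mean. On the scaled values CFT-1 replicate 2 held the peak of 22.2% of genes and Control replicate 3 of 17.9%, and each of the other 9 libraries of at most 8.25%. Of the 12, NDEA replicate 1 was also the shallowest library, with 15493940 reads on genes, where the deepest (CFT-1 replicate 1) had 25718302. Its scaling factor was 1.40, the largest of the 12, and Control replicate 3 had the smallest at 0.771. The comparisons with NDEA are therefore also given without NDEA replicate 1, and the comparisons that use CFT-1 replicate 2 or Control replicate 3 also without these.

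Promoter sequences are shown for 3 of the genes, covering the collagen, matrix glycoprotein and cytoskeletal genes. The sequences were not tested against the levels of the genes. The RefSeq promoter table (build GRCr8) held 5 of the 8 genes by symbol (Col1a2, Sparc, Vim, Tgfb1 and Timp1), and Col1a1, Col3a1 and Fn1 were not matched. Each line holds the 250 bases before the annotated start, 5′ to 3′ on the strand of the gene, with matches to 5 short motifs in capitals.
Col1a2, chr4:33518307-33518556, plus strand: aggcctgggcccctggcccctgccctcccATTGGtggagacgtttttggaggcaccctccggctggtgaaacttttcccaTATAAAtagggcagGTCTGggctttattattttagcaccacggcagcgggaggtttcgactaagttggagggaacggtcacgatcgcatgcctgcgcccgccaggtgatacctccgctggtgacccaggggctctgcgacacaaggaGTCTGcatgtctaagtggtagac
Sparc, chr10:40038817-40039066, minus strand: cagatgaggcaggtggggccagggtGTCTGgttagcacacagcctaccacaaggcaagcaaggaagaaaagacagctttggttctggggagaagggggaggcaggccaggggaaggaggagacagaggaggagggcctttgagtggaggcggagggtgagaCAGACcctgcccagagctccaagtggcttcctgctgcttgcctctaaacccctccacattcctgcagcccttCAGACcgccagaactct
Vim, chr17:81577011-81577260, plus strand: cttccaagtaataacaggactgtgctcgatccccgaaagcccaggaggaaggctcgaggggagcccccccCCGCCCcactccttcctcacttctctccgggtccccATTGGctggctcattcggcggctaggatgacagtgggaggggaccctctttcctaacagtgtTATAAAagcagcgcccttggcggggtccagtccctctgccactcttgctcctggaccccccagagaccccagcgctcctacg
The motifs were searched on both strands as exact letters, with the TATA box spelled as TATAAA, the GC box as GGGCGG, the AP-1 site as TGANTCA, the SMAD box as CAGAC and the CCAAT box as in its name, and the capitals include their reverse complements. Col1a2 and Vim held a TATA box, which 12.9% of the 33469 promoters of this length held, and the same 2 genes held a CCAAT box (34.0% of promoters). SMAD boxes were found 2 times before Col1a2 and 3 times before Sparc, and 42.9% of promoters held at least 1. A GC box was found before Vim and in the Timp1 window (30.5% of promoters). The Timp1 window, on the minus strand at chrX:3771123-3771372, lay inside the span given for that gene (3766509 to 3772578). The AP-1 letters, held by 6.34% of promoters, were in 0 of the 5 windows, and the Tgfb1 window held none of the 5 motifs. The matches of TATAAA lay 170 to 165 bases before the annotated start of Col1a2 and 82 to 77 bases before that of Vim. No match overlapped another, and a match of letters says nothing about binding.

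The genes spanned a wide range of levels. Fn1 had the highest mean FPKM over the 12 libraries (149), followed by Sparc (86.1), Col3a1 (33.3), Vim (27.3), Timp1 (8.05), Tgfb1 (5.08), Col1a1 (4.44) and Col1a2 (0.0682). The medians, on which NDEA replicate 1 bears less, were 150 for Fn1, 69.9 for Sparc, 29.6 for Col3a1, 19.5 for Vim, 5.65 for Timp1, 4.43 for Tgfb1, 1.51 for Col1a1 and 0.0378 for Col1a2. Of the 8 genes, 7 passed the filter on low values that the tests use (an average of 1 FPKM or more), and Col1a2 did not. Read counts recovered from the FPKM steps ranged from 14362 to 34027 per library for Fn1 and from 1 to 26 for Col1a2.

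**Figure D1:**
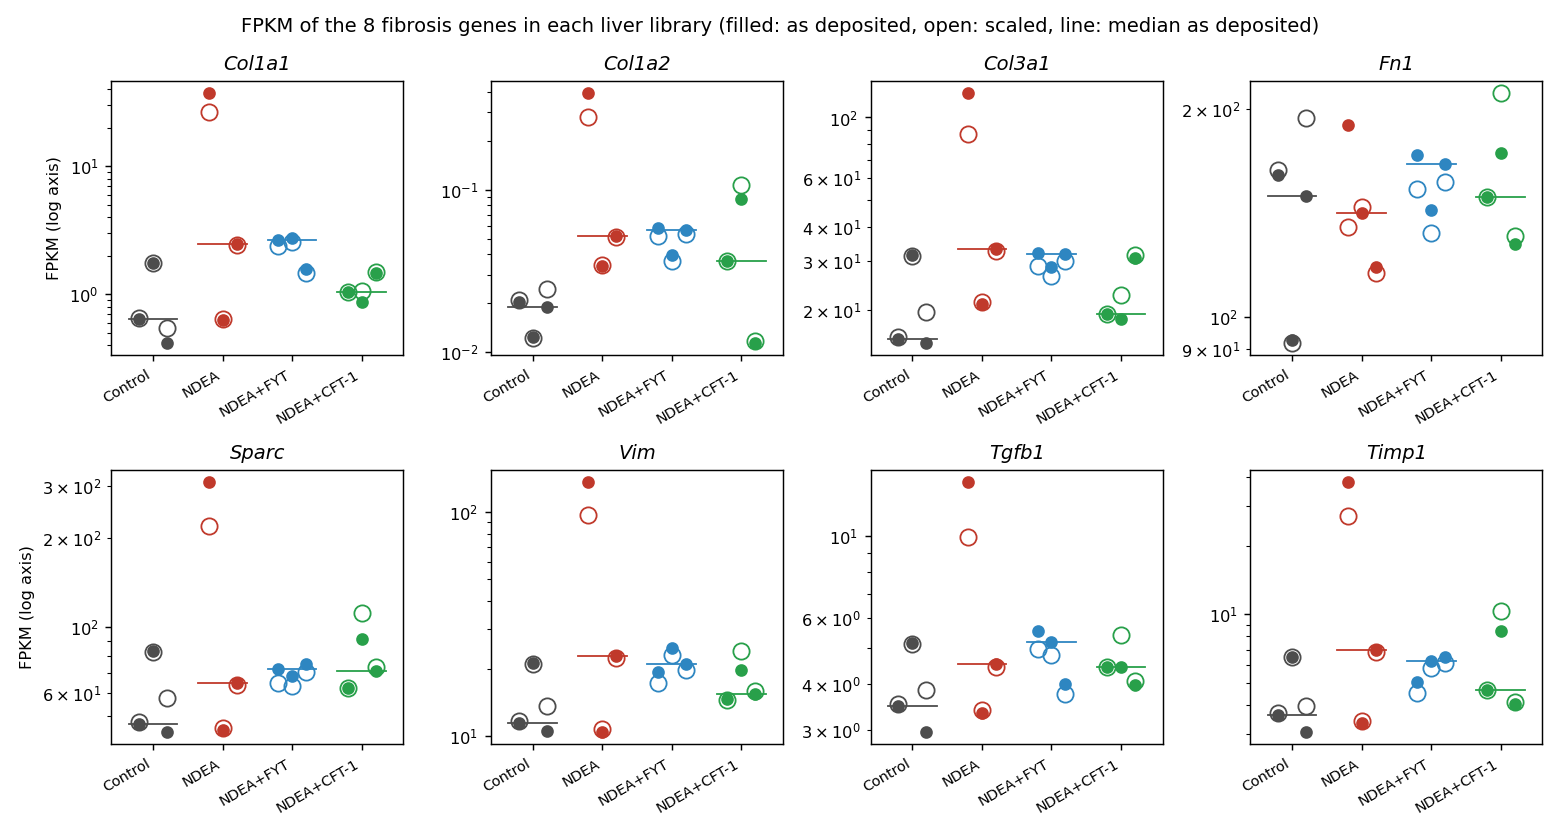
FPKM of each gene in each library on a log axis, by group, with filled points as deposited, open points after median-of-ratios scaling and a line at the deposited group median (n = 3 libraries per group, points in replicate order). NDEA replicate 1 is the top filled point in 8 of 8 panels, and for Fn1 its open point falls among the others.

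Col1a1, which encodes the α1 chain of type I collagen, the main scar collagen, spanned the widest range over the 12 libraries. Its deposited FPKM was 0.641, 1.77 and 0.417 in Control replicates 1 to 3, and 37.1, 0.632 and 2.47 in NDEA replicates 1 to 3. It was 2.66, 2.74 and 1.56 with FYT and 1.04, 0.875 and 1.46 with CFT-1. NDEA replicate 1 was thus 13.5 times the highest of the other 11 libraries, which was FYT replicate 2, while NDEA replicate 2 lay inside the Control range. After scaling the library was still 10.4 times the next. Over the other 11 libraries Col1a1 spanned a 6.58-fold range, less than the 7.71-fold range of Col1a2, and after scaling these ranges were 4.70-fold and 9.17-fold. The NDEA mean of 13.4 ± 20.5 (SD, n = 3) has an SD larger than itself, and without NDEA replicate 1 the other 2 libraries averaged 1.55. The 3 CFT-1 libraries lay below the 3 FYT libraries as deposited, as did 18.9% of the genes tested, but not after scaling (8.3% of genes).

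Col3a1 encodes type III collagen, the fibrillar collagen that accompanies type I in portal tracts and early scars. Its deposited FPKM was 15.6, 31.6 and 15.1 in Control and 122, 20.9 and 33.3 in NDEA. With FYT it was 32.1, 28.6 and 31.8, and with CFT-1 19.3, 18.5 and 30.7. Control replicate 2 and CFT-1 replicate 3 reached the level of the FYT libraries, so the groups overlapped. NDEA replicate 1 was 3.68 times the next library, NDEA replicate 3, and 2.67 times after scaling. The FYT libraries were close together, with a mean of 30.8 ± 1.96 (SD, n = 3).

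Col1a2 encodes the α2 chain, which joins α1 chains in the type I collagen trimer, and it was barely detected. The gene model behind its ID in the authors' annotation was not examined here, so the values are those of the ID as deposited. Its deposited FPKM was 0.0205, 0.0124 and 0.0189 in Control and 0.391, 0.0338 and 0.0520 in NDEA. With FYT it was 0.0581, 0.0395 and 0.0565, and with CFT-1 0.0362, 0.0880 and 0.0114. In reads this was 2, 1 and 2 in Control, 26, 3 and 5 in NDEA, 5, 3 and 6 with FYT and 4, 8 and 1 with CFT-1. The Control libraries lay below the NDEA libraries and below the FYT libraries on both scales and also without NDEA replicate 1, but the exact Poisson 95% intervals of 2 reads (0.242 to 7.22) and 3 reads (0.619 to 8.77) overlap widely. Among the genes tested, 10.8% had every Control library below every NDEA library as deposited and 5.11% after scaling, or 13.4% and 8.47% without NDEA replicate 1. Every Control library lay below every FYT library for 18.8% of genes as deposited and 5.18% after scaling. With NDEA replicate 1 at 26 reads (17.0 to 38.1), the interval of that library lay clear of those of the other 11.

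The IDs of the chains of type I collagen thus had very unequal levels. The Col1a2 FPKM was between 0.700% (Control replicate 2) and 10.1% (CFT-1 replicate 2) of the Col1a1 FPKM of the same library, with a median of 2.69%. FPKM is scaled to the length of the gene model. The lengths implied by the recovered reads were 4292 bases for Col1a2 and 5826 for Col1a1. Reads over the 12 libraries came to 66 for Col1a2 and 5340 for Col1a1. What the Col1a2 model covers was not examined, so the percentages are those of the IDs as deposited. The source of the gap was not tested. The ratio of Col3a1 to Col1a1, by contrast, separated NDEA replicate 1 from the rest. Col3a1 was 3.30 times Col1a1 there and 10.4 to 36.3 times Col1a1 in the other 11 libraries, with a median of 20.4. Its Col1a2 percentage, 1.05%, lay inside the range of the others.

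**Figure D2:**
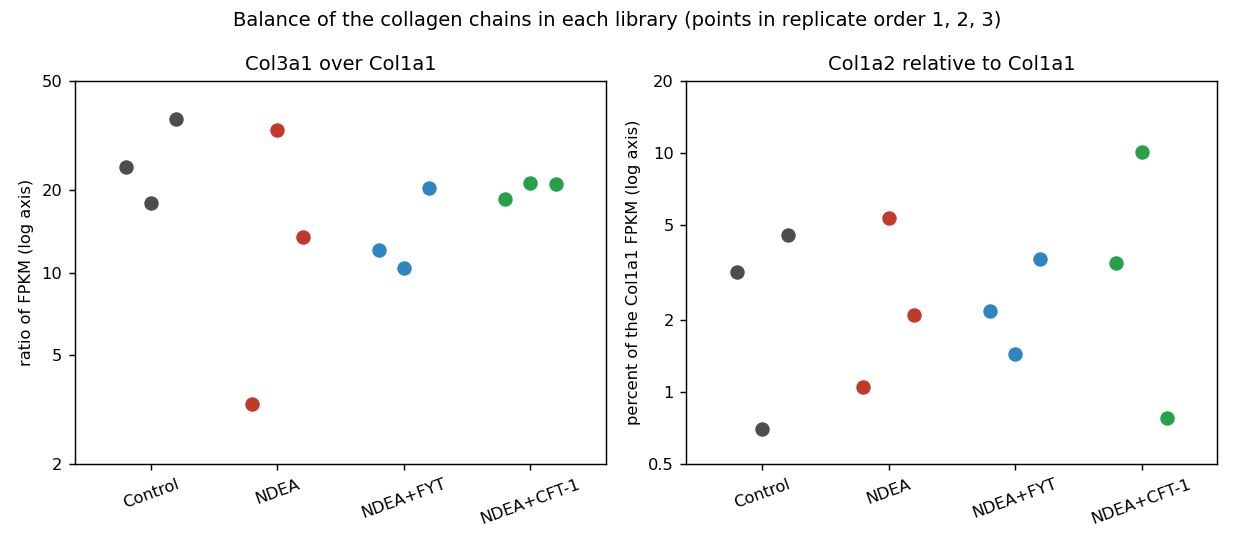
Left, the ratio of Col3a1 to Col1a1 FPKM, and right, Col1a2 as a percent of Col1a1, each on a log axis with 1 point per library in replicate order. NDEA replicate 1 has the lowest ratio on the left at 3.30, and lies inside the spread on the right.

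Fn1, which encodes fibronectin, behaved unlike the other genes. It was 161, 92.6 and 150 in Control and 190, 141 and 118 in NDEA, as deposited FPKM. The tea groups had 171, 143 and 167 (FYT) and 149, 173 and 128 (CFT-1). NDEA replicate 1 came first among the deposited values but exceeded CFT-1 replicate 2 by a factor of 1.10, and 41.1% of the genes tested had a larger ratio to their highest other library. After scaling it ranked 8 of 12 at 135, while CFT-1 replicate 2 was highest at 211 and Control replicate 3 reached 194. Control replicate 2, the highest Control library for 6 of the 8 genes, had the lowest Fn1 of all 12 libraries on both scales.

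Sparc encodes a collagen-binding matricellular protein. Its deposited FPKM was 47.0, 83.3 and 44.5 in Control and 308, 44.9 and 64.7 in NDEA. It was 72.4, 68.5 and 74.8 with FYT and 62.5, 91.2 and 71.4 with CFT-1. NDEA replicate 1 was 3.38 times the next library as deposited and 1.97 times it after scaling. NDEA replicate 2 was at the level of the lower Control libraries. Without NDEA replicate 1, the 3 FYT libraries lay above the remaining 2 NDEA libraries for Sparc and for Fn1 as deposited, which 19.7% of the genes tested also did, and for neither after scaling (8.44% of genes).

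Vim, the vimentin gene of stellate, endothelial and other mesenchymal cells and of leukocytes, gave 11.5, 21.1 and 10.6 FPKM in Control and 136, 10.5 and 22.8 in NDEA. The values were 19.3, 24.8 and 21.1 with FYT and 14.6, 19.7 and 15.5 with CFT-1. NDEA replicate 1 was 5.46 times the next library, and 4.01 times after scaling, the second largest ratio of the 8 genes after Col1a1. The other 11 libraries spanned a 2.36-fold range, and NDEA replicate 2 was the lowest of the 12.

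Timp1 encodes an inhibitor of matrix metalloproteinases. Its deposited FPKM was 3.62, 6.53 and 3.06 in Control and 38.0, 3.34 and 6.99 in NDEA. It was 5.05, 6.26 and 6.49 with FYT and 4.68, 8.49 and 4.04 with CFT-1. NDEA replicate 1 was 4.48 times the next library, CFT-1 replicate 2, and 2.61 times after scaling. Its depth was modest, at 51 to 133 reads in the other 11 libraries and 436 in NDEA replicate 1.

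Tgfb1 encodes the cytokine TGF-β1 and, after Fn1, differed least between NDEA replicate 1 and the rest. It was 3.47, 5.16 and 2.97 FPKM in Control and 14.0, 3.33 and 4.50 in NDEA. With FYT it was 5.54, 5.17 and 3.98, and with CFT-1 4.43, 4.43 and 3.96. NDEA replicate 1 was 2.52 times the next library as deposited and 1.84 times after scaling, and the other 11 libraries spanned a 1.87-fold range. As deposited, the CFT-1 libraries were the closest together of any group, with a mean of 4.28 ± 0.274 (SD, n = 3), but after scaling their SD was 0.698, and that of FYT was the smallest at 0.658.

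Across the genes, the top library was NDEA replicate 1 for 8 of 8 as deposited, where the share over all genes tested was 49.4%, and for 7 of 8 after scaling, where it was 20.0%. It was at least 2-fold above every other library for 7 of 8 as deposited against 8.18% of genes. After scaling this held for 5 of 8 against 3.6% of genes, since Sparc and Tgfb1 fell just under 2-fold. For Col1a1, 0.0675% of the genes tested had a larger ratio to their highest other library on either scale. NDEA replicate 2 was the lowest library of the group for 7 of 8 genes on both scales, as for 48.7% of the genes tested as deposited and 31.9% after scaling. Control replicate 2 was the highest of its group for 6 genes (all but Col1a2 and Fn1) on both scales, beside 43.7% and 31.2% of genes. CFT-1 replicate 2 was the highest of its group for 6 (all but Col1a1 and Col3a1) on both scales, beside 27.3% and 45.6% of genes. The parts that cell makeup, RNA quality and depth play in the values of NDEA replicate 1 were not tested.

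**Figure D3:**
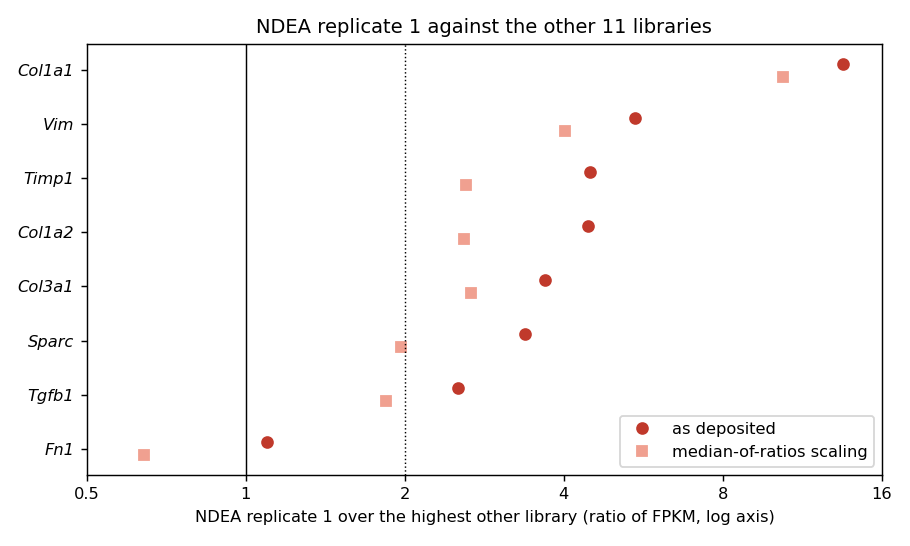
FPKM of NDEA replicate 1 divided by the highest of the other 11 libraries, for each gene, on a log axis, as deposited (circles) and after scaling (squares), with lines at 1 and 2. Col1a1 lies farthest right at 13.5 and 10.4, and only the scaled Fn1 value, 0.641, lies below 1.

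The groups were put in order by their medians, as a description with no test. As deposited, Control had the lowest of the 4 medians for 7 of 8 genes, as for 40.9% of the genes tested, and after scaling for the same 7 against 23.6%. For Fn1 the lowest median was that of NDEA, at 141 FPKM as deposited, beside 150 in Control. Without NDEA replicate 1, Control was lowest for these 7 as deposited (38.7% of genes) and for 6 after scaling (25.5% of genes), where the Sparc median was 57.6 in Control and 54.7 in NDEA. As deposited, FYT had the highest median for 5 genes (33.2% of genes tested) and NDEA for 3 (Col3a1, Timp1 and Vim, beside 30.8% of genes). After scaling, NDEA was highest for 4 (24.3% of genes), FYT for 2 (14.6%), Control for 1 (26.6%) and CFT-1 for 1 (34.5%). Without NDEA replicate 1, FYT was highest for 8 of 8 as deposited (41.5% of genes) and for 6 of 8 after scaling (15.9% of genes), with Sparc highest in CFT-1 (33.7% of genes) and Fn1 in Control (25.9%). In each of these 4 settings, 0 of the 24 pairs of groups next to each other in the order were free of overlap between their libraries. No share over all genes stands beside this count, so it is given only as a limit on the order.

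Control was then compared with NDEA. All 7 genes tested had a lower fitted level in Control, but 0 of the 7 passed the test, and 0.0% of the 11854 genes did (limma on log2(FPKM + 1), Benjamini-Hochberg adjusted p under 0.05, all 12 libraries in 1 fit). The log2 fold change was -1.69 for Col1a1 (SE 0.84, adjusted p = 0.524 by limma), -1.13 for Col3a1 (SE 0.51, adjusted p = 0.524) and -1.18 for Vim (SE 0.66, adjusted p = 0.524). Timp1 gave -1.09, Sparc -0.78, Tgfb1 -0.57 and Fn1 -0.17, with adjusted p of up to 0.757. Col3a1 was the only one of the 7 with an unadjusted limma p under 0.05 (0.0473), as were 8.7% of all genes tested (1031 genes, 131 higher and 900 lower in Control). With 1 library left out, its p ran from 0.00511 (without NDEA replicate 2) to 0.238 (without NDEA replicate 1), and it was 0.0682 after scaling. With the replicate number as a block, 0 of the 7 and 1117 of all genes (115 higher and 1002 lower) had an unadjusted limma p under 0.05. When only the Control and NDEA libraries were fitted, 0 of the 7 and 437 of all genes (69 higher and 368 lower) did. The median over the 7 genes was -1.09, beside -0.20 over all genes tested, and scaling moved these to -0.83 and 0.039 and turned the Fn1 change to 0.12. Without NDEA replicate 1 the median was -0.17 beside -0.083, 0 of the 7 and 3.14% of all genes had an unadjusted p under 0.05, 5 genes were lower and 2 (Fn1 and Sparc) higher in Control, and Col1a1 changed by -0.36 (95% interval -1.15 to 0.43). Without NDEA replicate 2 the median was -1.66 beside -0.27, and 6 of the 7 (all but Fn1) and 19.3% of all genes had an unadjusted p under 0.05, with a smallest adjusted limma p among the 7 of 0.206. Without Control replicate 3 the median over the 7 was -0.91 beside -0.13, and 407 of all genes had an unadjusted limma p under 0.05 (173 higher and 234 lower in Control).

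The comparison of NDEA+CFT-1 with NDEA addressed the tea rich in epigallocatechin-3-gallate. Of the 7 genes, 6 had a lower fitted level with CFT-1 and Fn1 a higher one, and 0 of the 7 and 0.0% of all genes passed the test. The log2 fold change was -1.51 for Col1a1 (SE 0.84, limma adjusted p = 0.462), -0.96 for Col3a1 (SE 0.51, limma adjusted p = 0.444) and -0.94 for Vim (SE 0.66, limma adjusted p = 0.551). For Timp1 it was -0.77, for Tgfb1 -0.43, for Sparc -0.38 and for Fn1 0.018. The median over the 7 genes was -0.77 beside -0.16 over all genes, and scaling moved these to -0.52 and 0.054. At an unadjusted p under 0.05 there were 0 of these 7 genes and 12.6% of all genes (1494 genes, 209 higher and 1285 lower). When only the CFT-1 and NDEA libraries were fitted, 0 of the 7 and 876 of all genes (88 higher and 788 lower) had an unadjusted limma p under 0.05. When NDEA replicate 1 was left out, 5 of the 7 were higher with CFT-1 and 2 (Col1a1 and Col3a1) lower, with a median of 0.11 beside -0.048, 0 of the 7 and 8.94% of all genes (406 higher and 654 lower) had an unadjusted p under 0.05, and Col1a1 changed by -0.17 (95% interval -0.96 to 0.62). When NDEA replicate 2 was left out instead, the median was -1.45 beside -0.23, and 4 of the 7 (Col1a1, Col3a1, Timp1 and Vim) and 19.1% of all genes had an unadjusted p under 0.05, with a smallest adjusted limma p of 0.203. Without CFT-1 replicate 2 the median over the 7 was -0.83 beside -0.097, and 997 of all genes had an unadjusted limma p under 0.05 (346 higher and 651 lower with CFT-1).

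In the comparison of NDEA+FYT with NDEA, 6 of the 7 genes had a lower fitted level with FYT and Fn1 a higher one, with changes from -0.87 for Col1a1 to 0.12 for Fn1. The limma adjusted p was 1.00 for every one of them, and 0.0% of all genes passed. The median over the 7 genes was -0.51 beside -0.031 over all genes, and -0.46 beside 0.0058 after scaling. As deposited, 0 of the 7 and 1.48% of all genes had an unadjusted p under 0.05 (176 genes, 127 higher and 49 lower). In a fit that gave each library its own weight (0.138 for NDEA replicate 1), 5 of the 7 were higher and 2 lower with FYT. Its median over the 7 was 0.064 beside 0.069 over all genes. At an unadjusted limma p under 0.05 it gave 0 of the 7 and 837 of all genes (641 higher and 196 lower). Without NDEA replicate 1, 7 of the 7 were higher with FYT, from 0.22 for Col3a1 to 0.46 for Col1a1, with a median of 0.30 beside 0.096, and 0 of the 7 passed the test or had an unadjusted p under 0.05 (2.29% of all genes). After scaling as well, these 7 were still higher, with a median of 0.18 beside -0.0073. Without NDEA replicate 2 the median was -1.03 beside -0.10, and 3 of the 7 (Col1a1, Timp1 and Vim) and 4.78% of all genes had an unadjusted p under 0.05, with an adjusted limma p of 0.832. Without NDEA replicate 3, 0 of the 7 and 347 of all genes (237 higher and 110 lower) had an unadjusted limma p under 0.05. The 3 comparisons with NDEA share its libraries, so their values are not independent of each other.

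The teas were also compared with each other, which does not involve the NDEA libraries except through the shared spread. Col1a1 was -0.63 with CFT-1 against FYT (95% interval -2.47 to 1.21) and Col3a1 -0.45 (-1.57 to 0.67). Without NDEA replicate 1 in the fit, these intervals narrowed to -1.34 to 0.075 and -1.10 to 0.20 around the same values. The other 5 genes lay between -0.37 (Vim) and 0.044 (Sparc). Among the 7 genes, 0 passed the test by limma, as did 0.0% of all genes, and 0 had an unadjusted p under 0.05 against 5.42% of all genes (642 genes, 21 higher and 621 lower with CFT-1). When only the FYT and CFT-1 libraries were fitted, Col1a1 alone among the 7 had an unadjusted limma p under 0.05, with an adjusted p of 0.325 and a 95% interval of -1.11 to -0.15. In that fit 11.9% of all genes had an unadjusted p under 0.05 (1412 genes, 58 higher and 1354 lower). The median over the 7 genes was -0.15, beside -0.14 over all genes, and scaling turned Fn1, Timp1 and Tgfb1 to higher with CFT-1 and these medians to 0.036 and 0.039. Without CFT-1 replicate 2 the median over the 7 was -0.33, beside -0.074 over all genes. The count of all genes at an unadjusted limma p under 0.05 was then 298 (38 higher and 260 lower), and it was 341 without FYT replicate 1, 348 without FYT replicate 2 and 1031 without NDEA replicate 1.

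**Figure D4:**
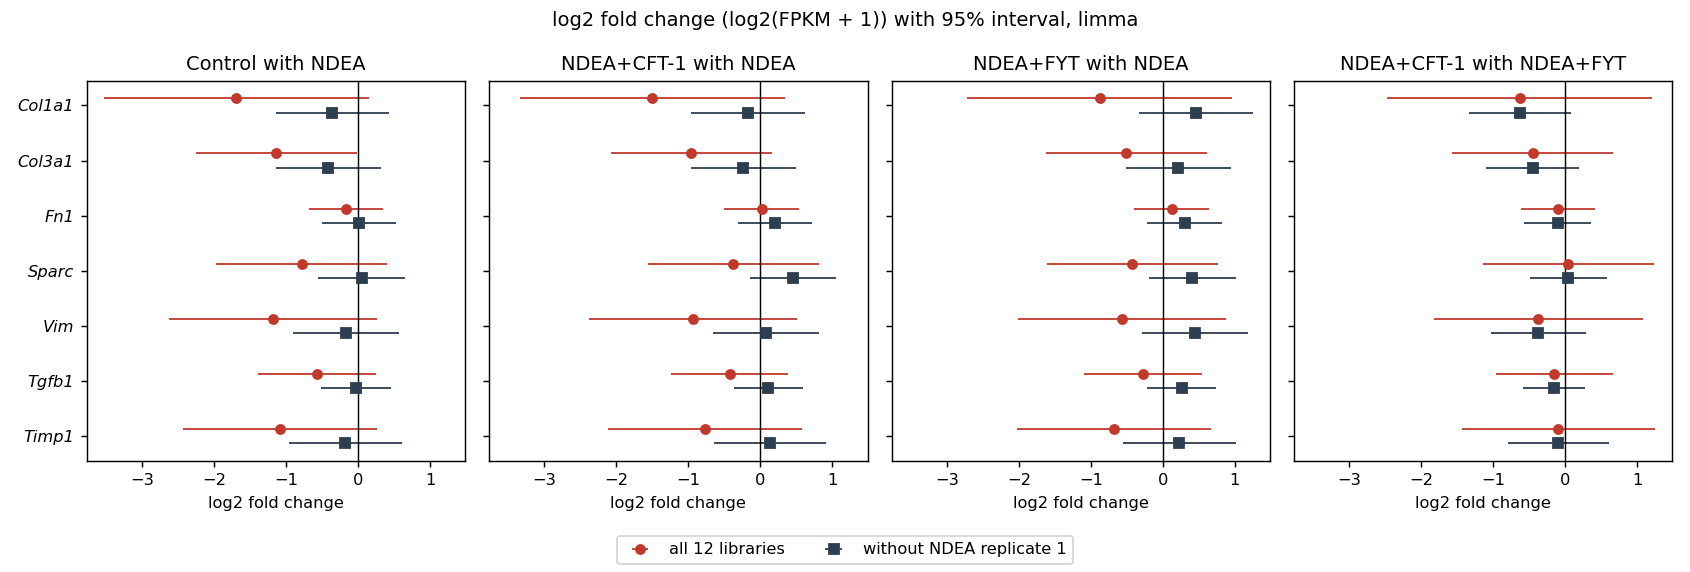
Log2 fold change of the 7 genes tested, on the log2(FPKM + 1) scale, with 95% intervals, in the 4 comparisons, from the fit of all 12 libraries (circles) and without NDEA replicate 1 (squares). In the 3 comparisons with NDEA the squares lie to the right of the circles for 7 of 7 genes, and the circles of Col1a1 lie farthest left, at -1.69, -1.51 and -0.87.

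Over the 4 groups together, the limma F test gave 0 of the 7 genes and 0.0% of all genes at an adjusted p under 0.05, and 0 of the 7 and 6.22% of all genes (737) at an unadjusted p under 0.05. The smallest unadjusted F-test p among the 7 was 0.174 for Col3a1. Without NDEA replicate 2, 4 of the 7 (Col1a1, Col3a1, Timp1 and Vim) and 1247 of all genes had an unadjusted F-test p under 0.05 in limma, with an adjusted p of 0.473 for these 4, and without FYT replicate 2 there were 491 genes and 0 of the 7. Fitting the recovered reads with limma voom also gave 0 genes in each comparison. At an unadjusted p under 0.05 it gave 971 genes for Control against NDEA, 1777 for CFT-1 against NDEA, 177 for FYT against NDEA and 709 for CFT-1 against FYT. Col1a2, which had no test in the main fit, changed by -0.17 in Control against NDEA when no filter was used (limma adjusted p = 0.582), on a scale where a pseudocount of 1 far exceeds its FPKM. For Col1a1, Sparc, Timp1 and Vim, the 95% intervals from the 12 libraries held both no change and a 2-fold change in each of the 4 comparisons, so that these could not be told apart in this fit.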

How the data were processed

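RNA from 12 livers was sequenced as paired-end reads. Per the labels and the study's methods, the authors used Trimmomatic for trimming and HISAT2 for mapping. PCR duplicates were dropped, and reads with a unique position were counted on genes with HTSeq 0.6.1 and deposited as FPKM values. The labels name the build Rnor_6.0. The labels call the 3 libraries of a group replicates, and the methods call them biological replicates.

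The 8 genes, the lists and the tests were chosen with earlier results of these data known. From the deposited FPKM, log2(FPKM + 1) was fitted by limma 3.58.1 under R 4.3.3 (linear model with group contrasts and trended eBayes, two-sided) over the 11854 IDs averaging 1 FPKM or more, with the 4 groups fitted together, and p was adjusted by Benjamini-Hochberg over all of them (called under 0.05). The authors tested with DEGSeq, a Poisson count model, whereas limma was chosen here to fit the deposited unit. The fit was tested on simulated data. Fold changes on this scale understate those of genes with a low FPKM. Tables were built with pandas 2.3.3 and plots with matplotlib 3.10.9.

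FPKM moves in steps of 1 read per gene and library. From these steps whole reads were recovered for 20169 of 20169 IDs above 0 in at least 4 libraries (tolerance 0.05 reads), and for 11852 of the 11854 tested, which gives 15493940 to 25718302 reads on genes per library. Intervals of reads are exact Poisson and cover counting error only.

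The named genes are the 8 alone. Lists of other collagens, matrix, TGF-β and cell type marker genes were not analysed here, since no table used here pairs Ensembl IDs with symbols. Alternatives were a pseudocount of 0.1, no filter, a minimum average of 5 FPKM, median-of-ratios scaling, library weights, no trend in eBayes, a replicate block, fits of single comparisons, and leaving out each library. A voom fit of the recovered reads, and scaling together with leaving out NDEA replicate 1, were added after seeing the data.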

Additional observations from a re-analysis of the deposited data

How the results depend on the processing

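Over all alternatives, 612 fitted changes of the 7 genes tested were computed, of which 560 had the same direction and 52 turned. Many of the 560 could not turn, so their number does not measure stability. The filter, the block, the trend and fits of single comparisons leave the change itself as it was. So does leaving out a library of a group outside the comparison. The smallest adjusted limma p was 0.203, so 0 of these genes were called under any alternative. The count over all genes stayed at 0 except that no filter gave 1 gene for Control with NDEA and 1 for any difference among the 4 groups, and library weights gave 19 for CFT-1 against NDEA and 1 for CFT-1 against FYT. Leaving out 1 library gave 0 to 2 genes for Control with NDEA (2 without Control replicate 2), 0 to 1 for FYT with NDEA, for CFT-1 with FYT and for any difference (1 without FYT replicate 3), and 0 for CFT-1 with NDEA. None of these was among the 8 genes, and the cause was not tested. Scaling changed the split at an unadjusted p under 0.05 from 131 higher and 900 lower to 515 and 449 for Control with NDEA, from 209 and 1285 to 974 and 813 for CFT-1 with NDEA, from 127 and 49 to 117 and 70 for FYT with NDEA, and from 21 and 621 to 333 and 391 for CFT-1 with FYT.

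Changes turned as follows on the log2 scale. With scaling, Fn1 became 0.12 in Control, and Fn1 0.12, Timp1 0.10 and Tgfb1 0.036 in CFT-1 with FYT. With voom, Fn1 became 0.12 in Control, and Fn1 0.13, Timp1 0.060 and Tgfb1 0.046 in CFT-1 with FYT. The weighted fit, in which NDEA replicate 1 counted 0.138, turned Fn1 to 0.13 in Control, Sparc to 0.065 with CFT-1, Col1a1 to 0.048, Sparc to 0.16, Tgfb1 to 0.13 and Vim to 0.064 with FYT, and Sparc to -0.096 in CFT-1 with FYT. Scaling without NDEA replicate 1 turned Fn1 to 0.14, Sparc to 0.17 and Tgfb1 to 0.066 in Control. It turned Sparc to 0.55, Timp1 to 0.23, Tgfb1 to 0.19 and Vim to 0.17 with CFT-1, and Col1a1 to 0.37, Col3a1 to 0.095, Sparc to 0.29, Timp1 to 0.13, Tgfb1 to 0.16 and Vim to 0.33 with FYT. In CFT-1 with FYT it turned Fn1 to 0.12, Timp1 to 0.10 and Tgfb1 to 0.032.

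With each library left out in turn, the changes that turned at least 1 time ranged, in Control, from -0.32 to 0.079 for Fn1 and -1.33 to 0.050 for Sparc. With CFT-1 they ranged from -0.14 to 0.20 for Fn1, -0.92 to 0.45 for Sparc, -1.45 to 0.14 for Timp1, -0.79 to 0.11 for Tgfb1 and -1.71 to 0.079 for Vim. With FYT the ranges were -1.81 to 0.46 for Col1a1, -1.03 to 0.22 for Col3a1, -0.034 to 0.30 for Fn1, -0.97 to 0.41 for Sparc, -1.36 to 0.23 for Timp1, -0.63 to 0.26 for Tgfb1 and -1.33 to 0.45 for Vim. In CFT-1 with FYT they were -0.21 to 0.0056 for Fn1, -0.10 to 0.16 for Sparc and -0.37 to 0.088 for Timp1.

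Nothing in the labels says that libraries with the same number in different groups share more than that number. The correlation of their deviations from the group means ran from -0.47 to 0.28 over 18 pairs (median 0.043, beside -0.022 over the 36 pairs with different numbers), with 7 above 0.1, and 0 of the 12 libraries correlated best with its own number in every other group. With the replicate number as a block, 0 genes were called in each comparison, and an unadjusted p under 0.05 was given by 1117 genes for Control, 1568 for CFT-1 and 195 for FYT, each against NDEA, and by 760 for CFT-1 against FYT. Depth limits Col1a2, at 1 to 26 reads per library, and, to a lesser degree, Timp1, at 51 to 436.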
